A study of Oryctolagus cuniculus with 6 samples.

Results

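The expression of 10 immediate early genes, FOS, FOSB, FOSL1, JUN, JUNB, JUND, EGR1, ATF3, IER2 and IER3, was examined in primary limbal stem cells (LSCs) of rabbits. The genes were taken by symbol from the deposited tables of 22190 genes, and 8 of the 10 had a row there under that symbol. The NCBI gene identifiers in the table were 100338345 for FOS, 100338208 for FOSL1, 100008856 for JUN, 127488466 for JUNB, 100009491 for EGR1, 100337749 for ATF3, 100350466 for IER2 and 100359212 for IER3. FOSB and JUND had none and are not analysed here. All 8 genes with a row passed the filter on low counts and were among the 15029 genes tested. The fresh group comprised 3 RNA-seq libraries of cells that grew out of limbal explants from corneas that had not been frozen. The preconditioned group comprised 3 libraries of cells grown the same way from corneas that were first kept for 7 days in liquid nitrogen, in a cryomedium containing the inflammatory cytokine IL-1β. Freezing and IL-1β were applied together, so their effects cannot be told apart. Rabbit strain, age, the animals behind each library and the interval between thawing and RNA extraction are not given in the sources used here. Because separate animals or cultures are not stated for the replicates, p values measure only the spread between these libraries, which may be technical.

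Immediate early genes are transcribed within minutes of a stimulus, without new protein synthesis, and their transcripts are usually short-lived. Growth factors, stress and cytokines such as IL-1 reach them through MAP kinases, which activate factors already present in the cell. FOS and JUN family proteins pair through leucine zippers into AP-1, a transcription factor that controls proliferation, migration and matrix-degrading enzymes in healing epithelium. EGR1 is a zinc finger factor, ATF3 is a stress-induced factor with the same type of zipper as AP-1, IER2 is a small nuclear protein, and IER3 is a membrane-associated regulator of cell survival.

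Each library held 31952352 to 34327534 counts on genes. Expression is given as CPM, the counts of a gene relative to the library's total after scaling by TMM factors of 0.914 to 1.07. Preconditioned replicate 1 stood apart from its group on the first principal component (50.4% of the variance), at 8.13 against 58.3 and 70.4, while the fresh libraries lay between −53.1 and −41.1. The epithelial keratin KRT5 was expressed at 7337 to 11740 CPM, the corneal keratin KRT3 at 239 to 2655 CPM and TP63, a marker of limbal progenitors, at 226 to 246 CPM in the fresh and 112 to 183 CPM in the preconditioned libraries. The epithelial adhesion gene EPCAM lay in the other direction, at 77.5 to 91.8 CPM and 102 to 126 CPM, and PAX6, the eye-field factor, at 174 to 218 CPM and 203 to 459 CPM, with overlap. None of the 7 tested epithelial markers was called. KRT12 and KRT14 were not analysed here. The summed expression of 11 stromal markers ranged from 546 to 1193 CPM in fresh and from 1331 to 2361 CPM in preconditioned libraries, with COL1A1 as the only called gene of the list. Without COL1A1 the sums of the other 10 overlapped, at 489 to 1084 CPM and 827 to 1669 CPM, and 4 of these 10 (KERA, DCN, PDGFRB and THY1) had negative log2 fold changes. The sum over 6 immune markers was 103 to 136 CPM and 126 to 318 CPM, nearly all of it from CD68. The pan-leukocyte gene PTPRC reached at most 1.503 CPM, and 3 of 4 endothelial and all 4 melanocyte markers stayed under 1 CPM in every library. The remaining endothelial marker, PECAM1, was at 2.30 to 2.99 CPM in the fresh libraries and at 0.882, 12.8 and 4.97 CPM in preconditioned replicates 1, 2 and 3. The part of stromal, immune or endothelial cells, and of the epithelial marker differences, in the results that follow was not tested. In such bulk samples, fewer cells of a type and less RNA per cell cannot be told apart.

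The first comparison asked whether the preconditioned group differed from the fresh group in these genes. Of the 8 tested members, 7 had a higher mean in the preconditioned group, which was the case for 50.5% of all tested genes. Their log2 fold changes ran from −0.29 for IER3 to 0.83 for EGR1, with a median of 0.21 against 0.0071 for all tested genes. A gene was called when edgeR's quasi-likelihood test gave it an adjusted p no higher than 0.05 together with a log2 fold change of 1 or more in either direction. None of the 8 members was called, where 2.29% of all tested genes were called. EGR1 alone had an unadjusted p under 0.05, as did 30.6% of all tested genes. EGR1 was also the only member whose 3 preconditioned libraries all lay on the same side of the 3 fresh libraries, a pattern seen for 36.7% of all tested genes. With DESeq2 no member passed both cutoffs, and EGR1 alone passed the cutoff on the adjusted p, as did 19.1% of the genes with an adjusted p.

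**Figure D1:**
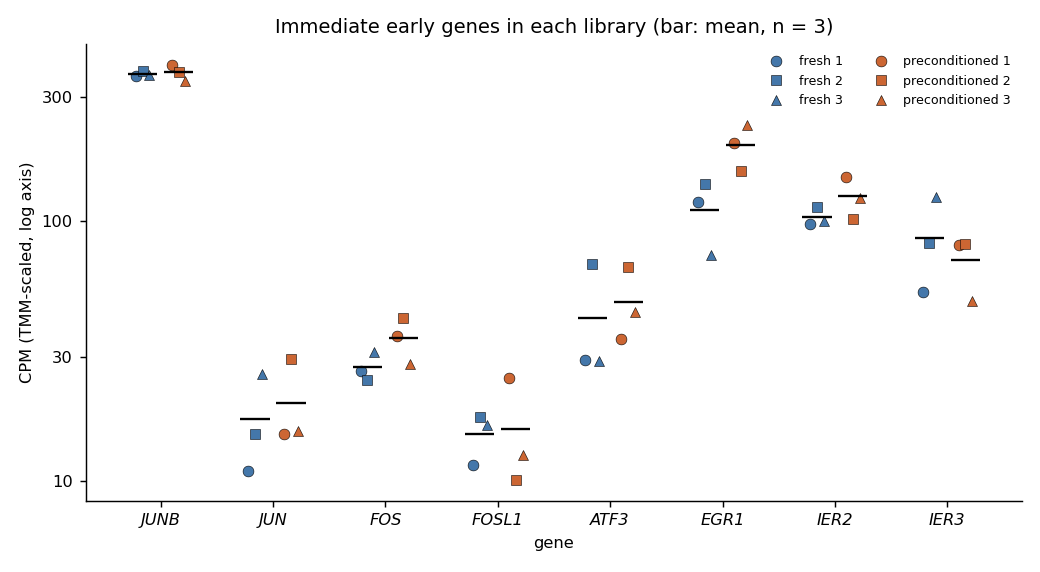
Expression of the 8 immediate early genes (x axis) in each library, in TMM-scaled CPM on a log axis. Symbols are the 3 fresh (blue) and 3 preconditioned (orange) libraries and bars are means. The groups are separate for EGR1, with 74.1 to 139 CPM against 156 to 235 CPM, and overlap for the other 7 genes.

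JUNB, which pairs with FOS proteins and often restrains JUN, was the most abundant and the most even member. Its expression was 361, 379.6 and 367 CPM in the fresh libraries and 401, 377 and 348 CPM in preconditioned replicates 1, 2 and 3. The groups overlapped completely, since the fresh values lay within the range of the preconditioned ones. The fresh mean was 369 ± 9.31 CPM and the preconditioned mean 375 ± 26.2 CPM (SD, n = 3 each). This gave a log2 fold change of 0.023 with a standard error of 0.11 and a 95% interval of −0.22 to 0.27 (edgeR adjusted p = 0.90). The interval corresponds to 0.856-fold to 1.21-fold, so that a change of JUNB beyond these limits lies outside the 95% interval. The sign of this small difference depended on the scaling, and was negative with library size alone (−0.15).

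JUN, the founding AP-1 subunit and a target of the kinase JNK, varied much more. It was expressed at 10.9, 15.2 and 25.8 CPM in the fresh libraries and at 15.2, 29.4 and 15.6 CPM in the preconditioned ones. Each group contained a library well above the other two, fresh replicate 3 and preconditioned replicate 2. The log2 fold change of 0.21 had a standard error of 0.39 and a 95% interval from −0.70 to 1.13 (adjusted p = 0.74 from edgeR). It became −0.17 without preconditioned replicate 2 and 0.62 without fresh replicate 3.

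FOS encodes the AP-1 subunit with the most transient induction. FOS was expressed at 26.5, 24.5 and 31.4 CPM in the fresh libraries and at 36.1, 42.4 and 28.3 CPM in the preconditioned libraries. Preconditioned replicates 1 and 2 exceeded every fresh library, whereas replicate 3 lay below fresh replicate 3. The fresh mean of 27.5 ± 3.56 CPM compared with 35.6 ± 7.05 CPM after preconditioning (SD, n = 3 each). The log2 fold change was 0.37, its standard error 0.18 and its 95% interval −0.052 to 0.80 (edgeR adjusted p = 0.21). The difference of the means was about as large as the spread within the preconditioned group.

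FOSL1, also known as FRA1, is induced later than FOS and is associated with migration of epithelial cells. Its values were 11.6, 17.6 and 16.4 CPM in the fresh libraries against 24.9, 10.1 and 12.6 CPM in the preconditioned ones. The preconditioned libraries held both the highest and the lowest value, with replicate 1 at the top and replicate 2 at the bottom. The log2 fold change was 0.061 (standard error 0.35, 95% interval −0.77 to 0.89, adjusted p = 0.92 from edgeR). It turned to −0.43 without preconditioned replicate 1, the library that stood apart over all genes, with an adjusted p of 0.21.

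EGR1, which is activated through ERK and serum response factor and takes part in wound responses, had the largest difference. The fresh libraries had 119, 139 and 74.1 CPM and the preconditioned libraries had 201, 156 and 235 CPM. The lowest preconditioned library, replicate 2, lay a little above the highest fresh library, replicate 2. Mean expression was 111 ± 33.3 CPM without and 197 ± 39.7 CPM with preconditioning (SD, n = 3 each), a 1.78-fold difference (95% interval 1.18 to 2.696). The log2 fold change of 0.83 (standard error 0.25) was below the fold change cutoff and had an adjusted p of 0.085 from edgeR and of 0.024 from DESeq2. Without each library in turn it was 0.61 to 1.03, with adjusted p values from 0.11 to 0.198. The separation of the groups rested on the scaling. In the deposited FPKM values, which are scaled by library total alone, fresh replicate 2 (47.4) exceeded preconditioned replicate 2 (45.9), and the groups overlapped. On that scaling the log2 fold changes of all tested genes had a median lower by 0.17, and that of EGR1 was 0.67 (adjusted p = 0.13).

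ATF3, IER2 and IER3 differed in the library that was highest. ATF3 was expressed at 29.4, 68.7 and 29.0 CPM in the fresh libraries and at 35.3, 67.0 and 44.7 CPM in the preconditioned libraries. Replicate 2 was the highest in both groups, and the groups overlapped (log2 fold change 0.21, standard error 0.397, adjusted p = 0.75 from edgeR). Without fresh replicate 2 the log2 fold change of ATF3 was 0.74 (adjusted p = 0.22), and without preconditioned replicate 2 it was −0.083.

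IER2 had 97.9, 114 and 99.96 CPM in the fresh libraries and 149, 102 and 123 CPM in the preconditioned ones. Preconditioned replicates 1 and 3 exceeded all fresh libraries and replicate 2 did not (log2 fold change 0.26, 95% interval −0.098 to 0.62, adjusted p = 0.28 from edgeR). IER3 was the only member with a lower mean in the preconditioned group. Its values spread from 53.4 to 82.9 and 124 CPM in fresh replicates 1, 2 and 3, and were 81.4, 81.5 and 49.3 CPM in the preconditioned libraries (log2 fold change −0.29, 95% interval −1.08 to 0.49, adjusted p = 0.58 from edgeR). The fresh libraries spread more widely than the group means differed, and without fresh replicate 3 it became 0.051.

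**Figure D2:**
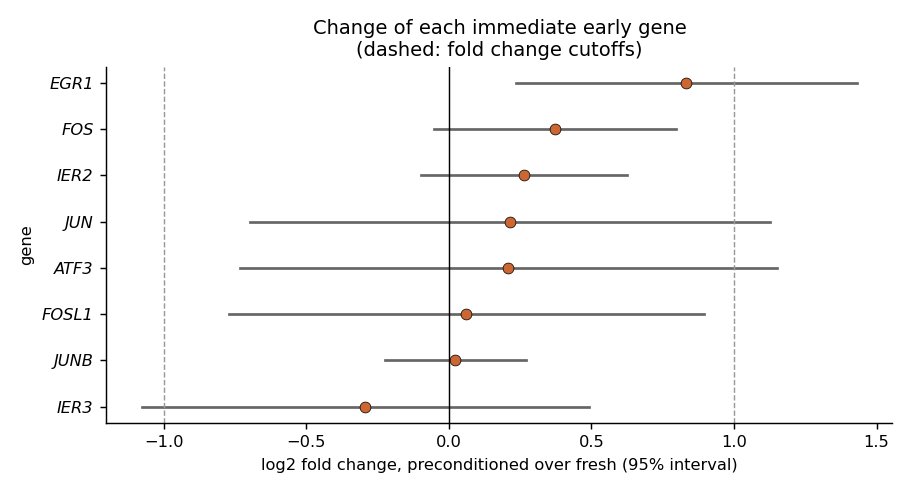
Log2 fold change of preconditioned over fresh (x axis) for each of the 8 genes (y axis), with 95% intervals from edgeR's quasi-likelihood fit. Dashed lines mark the fold change cutoffs. The interval of EGR1 (0.23 to 1.43) lies above 0, the other 7 include 0, and that of JUNB (−0.22 to 0.27) is the narrowest.

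No library was high or low across the whole set. Preconditioned replicate 1 had the highest value of FOSL1, JUNB and IER2, preconditioned replicate 2 that of FOS and JUN, preconditioned replicate 3 that of EGR1, fresh replicate 2 that of ATF3 and fresh replicate 3 that of IER3. Fresh replicate 3, the highest for IER3, was at the same time the lowest for EGR1 and ATF3.

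Levels of different genes were compared per length, in FPKM, averaged over the 6 libraries. JUNB stood first at 190.4 FPKM, above 97.4% of the tested genes, followed by IER3 (75.0), EGR1 (48.9), IER2 (46.6), ATF3 (23.5), JUN (16.6), FOS (14.8) and FOSL1 (11.04 FPKM, above 64.5% of the tested genes). JUNB was clear of its neighbour in this order, since its lowest library (169 FPKM) exceeded the highest library of IER3 (125 FPKM). IER2 was narrowly clear of ATF3, with 38.2 FPKM in its lowest library against 37.7 FPKM in the highest of ATF3. The ranges of the other neighbouring genes overlapped.

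The second comparison concerned the composition of AP-1 transcripts, as the sum of deposited FPKM within each family. FOSL2, a further FOS family gene that is not immediate early in all cells, was included here, so that the FOS family was FOS, FOSL1 and FOSL2 and the JUN family JUN and JUNB, without FOSB and JUND. JUNB made up 94.98%, 93.4% and 89.0% of the JUN family in the fresh libraries and 93.8%, 87.95% and 92.7% in the preconditioned libraries. FOSL2 was the largest part of the FOS family in every library, with 66.0%, 61.8% and 60.8% in the fresh and 51.8%, 57.5% and 64.5% in the preconditioned libraries. Among the genes of the 2 families with a row, JUNB and FOSL2 were therefore the predominant transcripts in each of the 6 libraries. Where FOSB and JUND would stand beside them could not be seen. FOS contributed 18.4% to 22.0% in fresh libraries and 21.3% to 31.3% in preconditioned ones, and the ranges overlapped.

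The JUN family sum was 3.12 to 3.30 times that of the FOS family in the fresh libraries and 3.04 to 3.42 times in the preconditioned ones. The log2 ratio of FOS to JUN family was −1.68 ± 0.040 and −1.66 ± 0.096 (SD, n = 3 each), a difference of 0.016 (exact 2-sided permutation test, p = 0.80). The share of FOSL1 in the FOS family was 16.8% ± 3.20 in fresh and 16.6% ± 6.97 in preconditioned libraries (SD, n = 3 each, exact 2-sided permutation test, p = 1). The share of JUN in the JUN family was 7.52% ± 3.09 and 8.52% ± 3.10 (SD, n = 3 each, exact 2-sided permutation test, p = 0.60). All 3 had an adjusted p of 1 over these tests, and 3 libraries against 3 cannot give a p under 0.1. The differences were smaller than the SD of either group.

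**Figure D3:**
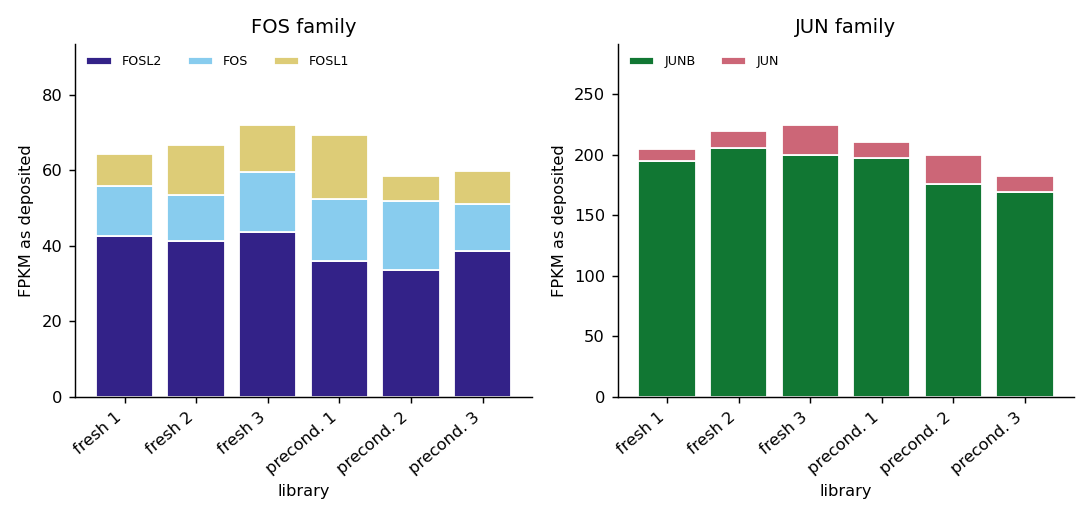
Stacked FPKM values, as deposited, of the FOS family (left) and the JUN family (right) in each of the 6 libraries (x axis, precond. for preconditioned). JUNB forms 87.95% to 94.98% of the right-hand bars, and FOSL2 51.8% to 66.0% of the left-hand bars.

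The spread between libraries of the same group was then described, as the SD of log2 CPM. The median over the 8 members was 0.397 for fresh and 0.36 for preconditioned libraries, against 0.13 and 0.198 for the 7841 tested genes expressed at or above the level of the lowest member. Over both groups together the median of the members was 0.37, and it was 0.24 without preconditioned replicate 2. In each group 7 of the 8 members were above the median of genes of similar level. In the fresh group ATF3 (0.71), JUN (0.62), IER3 (0.61) and EGR1 (0.47) also exceeded the 90th percentile of genes at their level, which was 0.33, 0.35, 0.29 and 0.28. In the preconditioned group no member did so. JUNB was the exception in both groups, with an SD of 0.036 and 0.10 against medians of 0.13 and 0.19 for genes at its level. The highest fresh library exceeded the lowest by 2.37-fold for JUN and ATF3 and 2.32-fold for IER3, but by 1.05-fold for JUNB. The intervals of the fold changes were wide for the same genes.

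**Figure D4:**
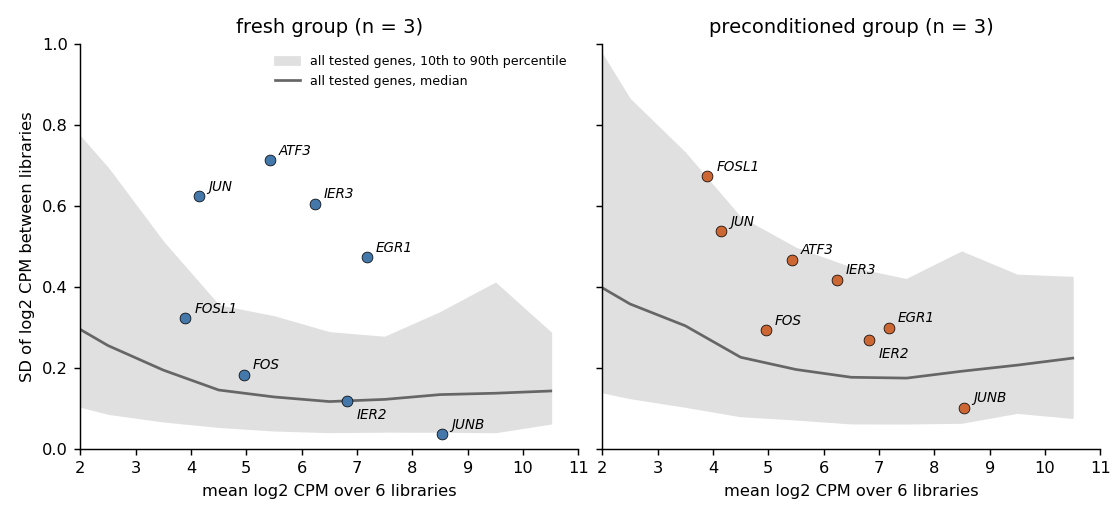
SD of log2 CPM between the 3 libraries of a group (y axis) against mean log2 CPM over the 6 libraries (x axis), for the fresh (left) and preconditioned (right) group. The grey line and band are the median and the 10th to 90th percentile of all tested genes in bins of 1 log2 unit. ATF3, JUN, IER3 and EGR1 lie above the band in the fresh group, and JUNB lies below the line in both.

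Genes that act with these members were taken from 5 lists. Of the 7 tested other zipper proteins that pair with AP-1, none was called in either direction (1.08% of all tested genes were called higher and 1.20% lower), and their median log2 fold change was −0.070. FOSL2 was nearly level, at 269, 259 and 274 CPM in the fresh libraries and 248, 246 and 270.0 CPM in the preconditioned ones (log2 fold change −0.070, standard error 0.099). MAFF, a small MAF protein that lacks an activation domain, was expressed at 9.27, 11.2 and 11.7 CPM in fresh and 13.3, 20.4 and 17.2 CPM in preconditioned libraries without overlap (log2 fold change 0.66, adjusted p = 0.089 from edgeR).

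Among 8 tested further early transcription factors none was called, against 2.29% of all tested genes, and the median log2 fold change was 0.29. CSRNP1, a nuclear factor, had 10.03, 13.3 and 15.9 CPM in fresh and 23.3, 25.8 and 17.3 CPM in preconditioned libraries (log2 fold change 0.76, adjusted p = 0.084 from edgeR). NR4A2, an orphan nuclear receptor, differed in the other direction, with 14.3, 14.0 and 15.2 CPM against 10.8, 10.1 and 12.1 CPM (log2 fold change −0.40, adjusted p = 0.14). EGR2 and EGR3, the relatives of EGR1, had at most 14 and 6 counts per library and were not tested. EGR4 was not analysed here.

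The feedback inhibitors end the early response, by removing phosphate from MAP kinases (DUSP genes), binding the kinases' activators (SPRY and SPRED genes), degrading early transcripts (ZFP36 genes) or restraining proliferation (BTG and TOB genes). Of 20 tested genes, 1 was called higher and 0 lower, against 1.08% and 1.20% of all tested genes. Their median log2 fold change was 0.0064. DUSP4, a nuclear phosphatase of ERK and JNK, rose from 28.9, 30.1 and 54.4 CPM in the fresh libraries to 72.8, 168 and 153 CPM in the preconditioned libraries (log2 fold change 1.80, standard error 0.38, adjusted p = 0.048 from edgeR). The call was lost when any library other than preconditioned replicate 1 was left out, with adjusted p values of 0.082 to 0.16. DUSP1 passed the cutoff on the adjusted p, as did 5.08% of all tested genes, but not that on the fold change. It had 156, 141 and 197 CPM in the fresh libraries and 244, 316 and 330.1 CPM in the preconditioned libraries (log2 fold change 0.85, standard error 0.17, adjusted p = 0.044 from edgeR). Its adjusted p was 0.080 to 0.16 without any library other than preconditioned replicate 1.

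The groups also did not overlap for TOB1 (log2 fold change 1.22, adjusted p = 0.053 from edgeR), DUSP5 (0.66, adjusted p = 0.052) and BTG1 (0.64, adjusted p = 0.091), all higher in the preconditioned group. TOB1 passed both cutoffs with DESeq2 (adjusted p = 0.0011) and, in edgeR, without preconditioned replicate 1 (adjusted p = 0.0025). Without any other library its edgeR adjusted p was 0.13 to 0.17. DUSP5 and BTG1 passed only the cutoff on the adjusted p in the same settings. In total 7 of the 20 feedback inhibitors were separated, 6 of them higher, which is close to the 36.7% of all tested genes. DUSP6, a phosphatase of ERK, did not share the direction, with a log2 fold change of −0.088.

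Upstream of the early genes, 20 kinases and resident transcription factors were tested. None was called, against 2.29% of all tested genes, and the median log2 fold change was −0.14. MRTFA and MRTFB, the actin-regulated partners of serum response factor, passed the cutoff on the adjusted p but not that on the fold change. MRTFA was expressed at 32.9, 34.6 and 39.4 CPM in fresh and 24.7, 21.3 and 19.3 CPM in preconditioned libraries (log2 fold change −0.71, standard error 0.14, adjusted p = 0.044 from edgeR). MRTFB was expressed at 41.9, 47.1 and 43.9 CPM against 33.02, 30.7 and 29.8 CPM (log2 fold change −0.51, standard error 0.11, adjusted p = 0.049). Both missed the cutoff without any library other than preconditioned replicate 1, with adjusted p values of 0.10 to 0.15 for MRTFA and 0.12 to 0.18 for MRTFB. MAPK3, which encodes an ERK kinase, was higher in the preconditioned group without overlap, at 109, 115 and 92.4 CPM against 120.1, 163 and 155 CPM (log2 fold change 0.47, adjusted p = 0.093 from edgeR). SRF itself had a log2 fold change of 0.060.

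Of 17 tested textbook target genes of AP-1, 1 was called higher and 0 lower, against 1.08% and 1.20% of all tested genes. The median log2 fold change was 0.31, and 10 of the 17 had a positive one. The list was mixed, with IL6 at −1.89 and IVL at −1.18, both overlapping between groups. The groups were separate for 4 of the 17, all higher and all named below, where 36.7% of all tested genes were separate. PLAU, the urokinase that activates plasminogen at the cell surface, rose from 2362, 2260 and 2093 CPM in the fresh libraries to 4108, 6450 and 4786 CPM in the preconditioned libraries (log2 fold change 1.19, standard error 0.18, adjusted p = 0.031 from edgeR). Its call was lost without any library other than preconditioned replicate 1, with adjusted p values of 0.075 to 0.13. The collagenase MMP1, which the study had picked from differences in these libraries, showed a log2 fold change of 1.48 (adjusted p = 0.058 from edgeR), and HMOX1, a haem-degrading enzyme of the stress response, one of 2.58 (adjusted p = 0.057). The hyaluronan receptor CD44 showed one of 0.44 (adjusted p = 0.11). HMOX1 was at 109, 598 and 223 CPM in preconditioned replicates 1, 2 and 3, and its log2 fold change was 1.68 (adjusted p = 0.14) without replicate 2. Both MMP1 and HMOX1 were lowest in replicate 1 among the preconditioned libraries, and both passed the cutoffs with DESeq2 or without that library. In the plot by list, the 17 targets spread from −1.89 to 2.58, while the 8 immediate early genes lay between −0.29 and 0.83.

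**Figure D5:**
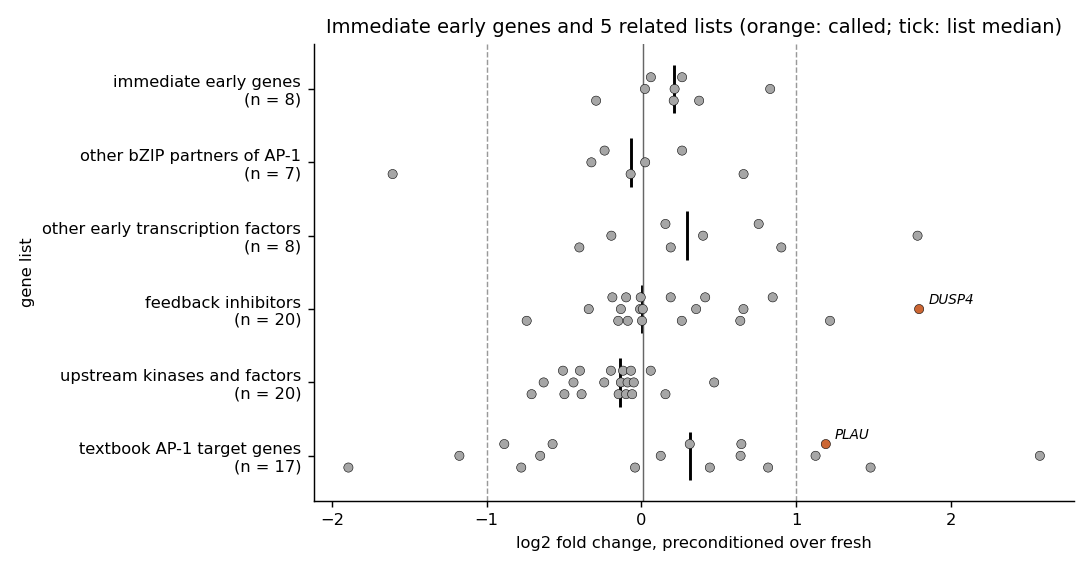
Log2 fold changes of preconditioned over fresh (x axis) for the tested genes of 6 lists (y axis). Each point is a gene, orange where it was called, ticks are list medians, the grey line is the median of all tested genes and dashed lines are the fold change cutoffs. DUSP4 and PLAU are the only called genes, and no immediate early gene is called.

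The genes whose pattern over the 6 libraries was most like that of FOS were sought among 9025 genes with a mean of at least 10 CPM. Likeness was the root mean square difference of log2 CPM after centring each gene on its mean. The nearest were GREB1L (0.057), P3H2 (0.061), TMEM126B (0.072), SSR1 (0.075) and PDLIM4 (0.081). None of these is a classical early gene. In the pathway annotation deposited with the table, 5 of the 8 members had an entry. FOS, FOSL1 and JUN shared the IL-17 pathway, FOS, JUN and JUNB the TNF pathway, and all 4 were listed under osteoclast differentiation.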

How the data were processed

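RNA-seq was analysed in 3 fresh and 3 preconditioned libraries, grouped by the sample titles. Reads were aligned by the authors with hisat2, and raw htseq-count counts per gene and FPKM values were deposited. Genome build, annotation and strand setting are not given in the sources used here. The deposited FPKM equal the counts divided by the library total and by 1 length per gene (equal within 0.1% for 20435 of 20435 genes with counts in at least 2 libraries).

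Counts were tested in R 4.3.3 with edgeR 4.0.16 (filterByExpr, TMM, robust quasi-likelihood test with the group as sole factor), with Benjamini-Hochberg adjustment over all 15029 tested genes. Called genes had an adjusted p no higher than 0.05 and a log2 fold change of 1 or more in either direction. Standard errors were derived from the F statistic, and log2 CPM used a prior count of 2. The edgeR and DESeq2 fits, but not limma, were run on counts simulated from the means and dispersions of the edgeR fit. DESeq2 made more false calls than edgeR there. Counts drawn from the fit of one tool cannot rank the tools on the real data, so no conclusion is drawn. Totals of 31952352 to 34327534 counts leave the spread between libraries as the limit of precision. Libraries of the same group differed beyond sampling noise, with a chi-square per degree of freedom of 51.3 to 157.

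The alternatives were DESeq2 1.42.0, 2 other scalings, 2 other filters, the replicate number as a block, no fold cutoff, limma 3.58.1 on log2(FPKM + 1) and log2(FPKM + 0.1), and leaving out each library. The members and gene lists were chosen with earlier results of these data known. All members are named. From the lists, called genes and up to 4 further genes per list without overlap between groups and with the largest changes are named, and EGR2, EGR3, FOSL2, DUSP6 and SRF were added after their values were seen. One gene that this rule names is not reported here. FOS served as the reference for the 5 genes of most similar pattern. Gene sequences were not used here.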

Additional observations from a re-analysis of the deposited data

How the results depend on the processing

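None of the 8 members passed both cutoffs under any of the alternatives. The number of genes called overall was 344 and became 1190 with DESeq2, 565 with library size alone (142 higher and 423 lower, against 163 and 181), 590 with limma on log2(FPKM + 0.1) (141 higher), 763 without a fold change cutoff, 30 with the replicate block, and 14 to 1546 without each library. Leaving out preconditioned replicate 1 gave the largest of these. In the 5 lists, 2 genes were called, against 6 with DESeq2, 5 without a fold change cutoff, 1 without a filter on low counts, 1 and 0 with limma on log2(FPKM + 0.1) and log2(FPKM + 1), 0 with the replicate block, and 0 to 9 without each library. The number of members without overlap was 1 and became 0 on plain library totals. It was 0 in FPKM too, which is the same scaling and not a second result. Without each library it was 1 to 3, when 41.2% to 58.6% of all tested genes were separated.

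The sign of small differences depended on the setting. FOSL1 (0.061) became −0.098 with library size alone, −0.036 with the block, −0.17 and −0.19 with limma on log2(FPKM + 1) and log2(FPKM + 0.1), and −0.43 to 0.30 without each library. JUNB (0.023) became −0.15 with library size alone and with limma on log2(FPKM + 1) and log2(FPKM + 0.1), and −0.038 to 0.076 without each library. Without each library, JUN ranged from −0.17 to 0.62, ATF3 from −0.083 to 0.74 and IER3 from −0.55 to 0.051. The difference in the log2 ratio of FOS to JUN family (0.016) was −0.048 in CPM and −0.014 to 0.071 without each library. That in the share of FOSL1 (−0.19 percentage points) was 0.25 in CPM and −4.12 to 2.54 without each library, and that in the share of JUN (1.005) was −0.76 to 2.73. EGR1, FOS and IER2 kept their direction in all 14 alternatives with a log2 fold change.

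Deviations from the group means were not shared by libraries of equal replicate number (correlations across genes of −0.067, −0.073 and −0.11), so that the number was not taken as a pairing. With the replicate block the log2 fold change of EGR1 was 0.86 (adjusted p = 0.17), and DUSP4 and PLAU lost their calls, as DUSP1, MRTFA and MRTFB missed the cutoff on the adjusted p (0.088, 0.11 and 0.13). The median spread of the members (0.37) was 0.24 to 0.41 without each library. The cause of these changes was not tested.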
